A study of Mus musculus with 16 samples.

Results

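The 7 genes of the secretory cells that line the airways followed here on lung arrays were Scgb1a1, Scgb3a1, Scgb3a2, Muc5b, Reg3g, Aldh1a1 and Pon1. They were chosen by name, with earlier results of these data known. Every probe whose gene name in the array files was one of these was taken. That gave 8 probes for 7 of the 25573 genes with a usable probe. Of other markers of the same cells, 19 of 20 club cell genes and 11 of 11 goblet cell genes were measured. Total RNA of whole lungs of female mice was measured with 1 array per sample, on 16 arrays from 5 groups. In ARF-DTR mice the Arf promoter drives a diphtheria toxin (DT) receptor, so that the toxin can kill cells in which that promoter is active, and all 3 ARF-DTR groups carry this transgene. The groups were ARF-DTR mice aged 12 months given DT at 50 microgram per kg (n = 4), ARF-DTR mice aged 12 months given PBS (n = 4), ARF-DTR mice aged 2 months without injection (n = 4), wild type (WT) mice aged 12 months given the same DT dose (n = 2) and WT mice aged 12 months given PBS (n = 2). DT in WT mice gives the effect of the toxin without its receptor. Injections were given into the abdomen every 2 weeks over 1 month. Whether each sample is a mouse of its own is not in the labels, and the p-values therefore refer to the variation among samples, part of which may be technical.

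Club cells secrete secretoglobins, small proteins of the airway lining fluid, and carry enzymes that metabolise foreign compounds. Mucous (goblet) cells secrete gel-forming mucins, and both cell types release antimicrobial proteins onto the airway surface. In RNA of a whole lung, fewer cells of a type and less RNA per cell cannot be told apart, and the amount of large airway in the piece of tissue also enters the measurement.

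A level is the log2 of a signal after subtraction of its array's 75th percentile (on the log2 scale), so a difference of 1 is a 2-fold difference. Levels of different genes come from different probes and were not set against each other. The 8 probes were well above background on all 16 arrays, and 0 of their spots were saturated. The arrays lay on 2 slides: the 2-month and 12-month PBS ARF-DTR arrays on the first, and the DT-treated ARF-DTR and all WT arrays on the second. The 75th percentile was 612.8 to 725 intensity units on the second slide and 873 to 1088 on the first. The age comparison, DT in WT, and DT-treated ARF-DTR against WT therefore lie within a slide. On each slide the arrays lay in 2 rows, with the 2-month and the DT-treated ARF-DTR arrays in row 1 and the others in row 2. For age and for DT-treated ARF-DTR against WT, row and group therefore cannot be told apart. The comparison of DT with PBS in ARF-DTR mice, and ARF-DTR against WT with PBS, cross the slides, where slide and group cannot be told apart.

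The probes of the 3 genes that varied most read the following sequences, shown as the last 30 bases of each 60-base probe to identify the piece of transcript measured; capitals mark AATAAA, the polyadenylation signal motif. They lie at chr11:49478489-49478548 (plus strand) for Scgb3a1, chr7:149058931-149058990 (plus strand) for Muc5b and chr6:78416420-78416479 (minus strand) for Reg3g, all on build mm9.
Scgb3a1: acgagatgcctgacgagatatttttcttta
Muc5b: ccctaagctgcAATAAAccctggcactgtg
Reg3g: atacctagccacaagcaagatcccaaatgt

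Scgb3a1 encodes a secretoglobin of the larger airways. Its level was 7.08, 5.03, 6.24 and 6.12 in DT-treated ARF-DTR lungs, 7.21, 6.29, 6.60 and 7.38 in 12-month PBS ARF-DTR lungs, and 2.92, 5.98, 7.92 and 7.08 in 2-month ARF-DTR lungs. It was 7.70 and 7.92 in DT-treated WT lungs and 7.64 and 7.35 in PBS WT lungs. The 2-month group held both the lowest and the highest value of the 16 arrays, 32.1-fold apart.

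Muc5b encodes a gel-forming mucin that is made constitutively in the airways. Its level was 3.86, 2.91, 3.12 and 2.48 in DT-treated ARF-DTR lungs, 4.12, 3.67, 3.84 and 4.61 in 12-month PBS ARF-DTR lungs, and 1.12, 3.68, 4.94 and 4.34 in 2-month ARF-DTR lungs. It was 4.68 and 4.36 in DT-treated WT lungs and 4.55 and 4.11 in PBS WT lungs. Again 2-month replicate 1 was lowest and 2-month replicate 3 highest of all arrays, 14.1-fold apart.

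Reg3g encodes a secreted C-type lectin that kills Gram-positive bacteria. Its level was 4.37, 1.80, 3.76 and 3.16 in DT-treated ARF-DTR lungs, 4.60, 2.95, 3.90 and 4.77 in 12-month PBS ARF-DTR lungs, and -2.90, 3.08, 5.87 and 4.12 in 2-month ARF-DTR lungs. It was 4.53 and 4.66 in DT-treated WT lungs and 4.43 and 4.14 in PBS WT lungs. The 2-month arrays spanned 437.8-fold, and only 0.0039% of genes had a larger standard deviation (SD) in that group, where the median SD over all genes was 0.14.

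Scgb3a1, Muc5b and Reg3g varied together. After each group's mean was subtracted, Pearson's r over the 16 arrays was 0.99 for Scgb3a1 with Reg3g, 0.95 for Muc5b with Reg3g and 0.95 for Scgb3a1 with Muc5b. Without 2-month replicate 1, over 15 arrays, these were 0.97, 0.79 and 0.80. Scgb3a2 moved with them too, with r = 0.86 for Scgb3a1, 0.89 for Muc5b and 0.85 for Reg3g over 16 arrays. Over 15 arrays its values were 0.74, 0.82 and 0.74. All 15 pairs of members without Pon1 had r of 0.56 to 0.99 over 16 arrays. For Aldh1a1 this rested in part on 2-month replicate 1. Over 15 arrays its r was 0.33 with Scgb1a1, 0.37 with Scgb3a1, 0.41 with Muc5b, 0.36 with Reg3g and 0.68 with Scgb3a2. The values are a description, since genes of an array share its RNA and its scaling. The genes whose deviations were most like Reg3g were Bpifb1 (r = 0.97), a secreted protein of airway epithelium, Cyp4a12a (r = 0.97), a cytochrome P450, and Tff2 (r = 0.97), a trefoil peptide of mucous cells. Those most like Scgb3a1 were Cyp4a12a (r = 0.99), Tff2 (r = 0.99) and Bpifb1 (r = 0.98). Those most like Muc5b were Gp2 (r = 0.98), Bpifb1 (r = 0.97) and Bbox1 (r = 0.96).

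**Figure D1:**
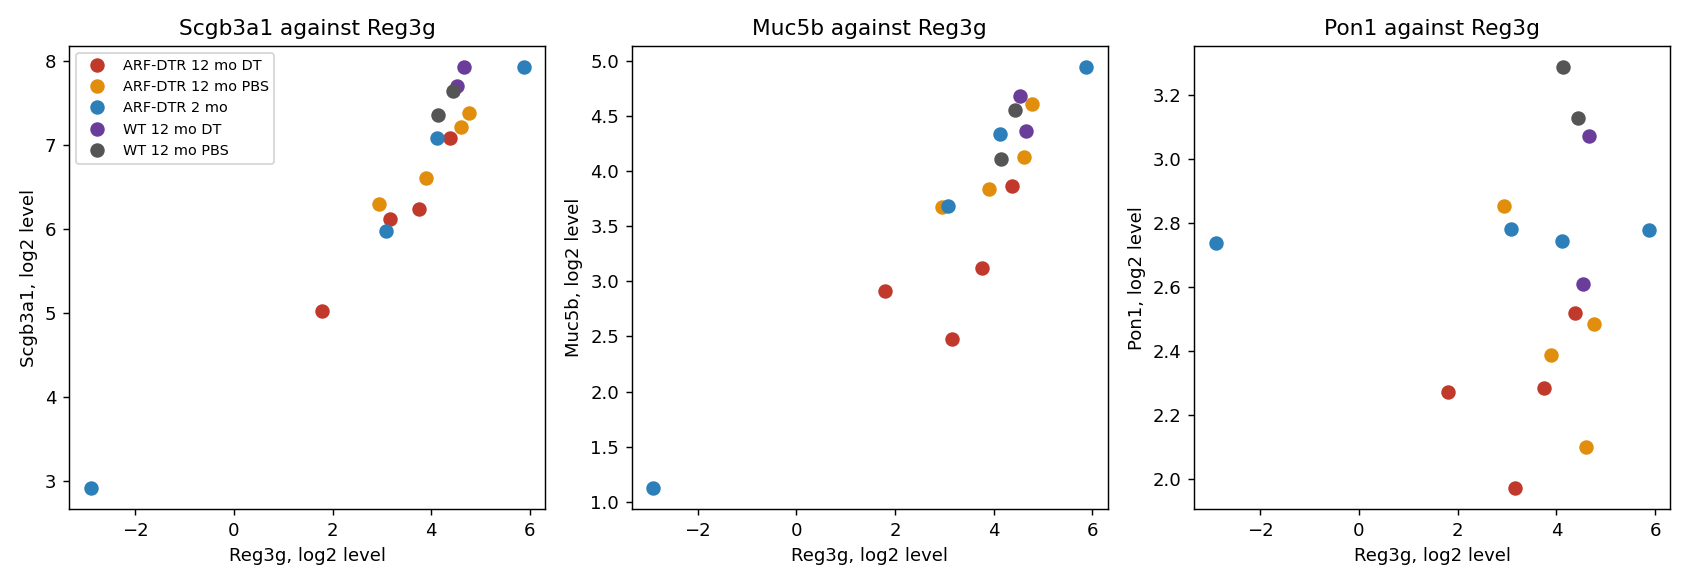
Log2 level of Scgb3a1, Muc5b and Pon1 (vertical axes) against that of Reg3g (horizontal axes), 1 point per array, coloured by group. Scgb3a1 and Muc5b rise along with Reg3g over the arrays, with 2-month replicate 1 at the low end, while Pon1 does not (r = -0.02 between deviations of Pon1 and Reg3g).

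The mean levels of marker lists of other airway cells moved with these 3 genes, though not every gene of a list did. The mean level of the 11 goblet cell genes was -1.97 on 2-month replicate 1 and 1.24 on 2-month replicate 3, and that of the 17 measured ciliated cell genes was 1.21 and 1.96. The goblet list's deviations had r = 0.96 with those of the 3 genes, the ciliated list's 0.80 and the club list's 0.81, over 16 arrays, and the alveolar type 2 list's -0.01. Without 2-month replicate 1, over 15 arrays, these were 0.98, 0.69, 0.75 and 0.61, so the low value of the alveolar type 2 list rests on that array. Single club cell genes had r between -0.27 (Aox3) and 0.88 (Sult1d1) over 16 arrays, and several were below 0. Goblet cell genes had 0.10 (Creb3l1) to 0.99 (Bpifb1) and ciliated cell genes 0.35 (Tppp3) to 0.87 (Dnah5). The part of airway sampling in the spread was not tested.

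**Figure D2:**
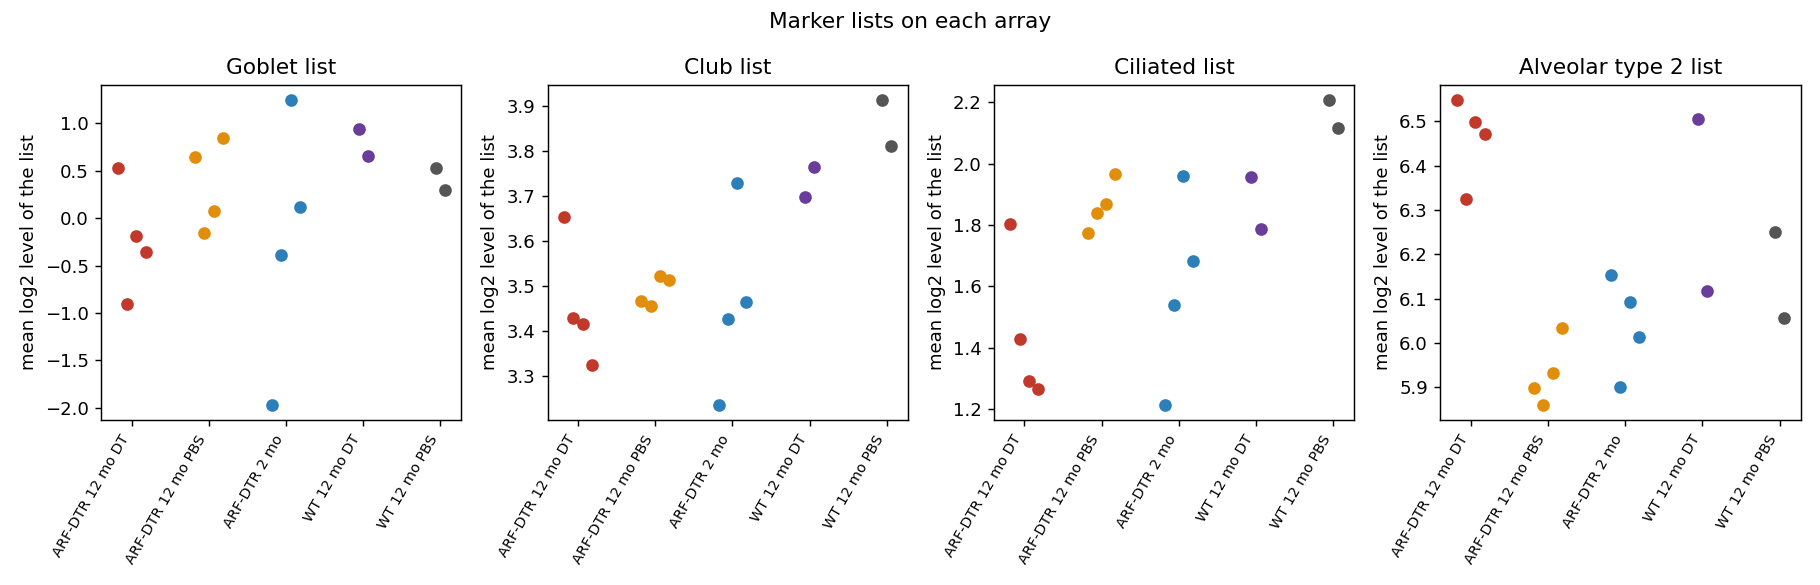
Mean log2 level of 4 lists of marker genes (vertical axes) on each array, by group along the horizontal axes. In the 2-month group the goblet list runs between -1.97 and 1.24, and in the DT-treated ARF-DTR group the alveolar type 2 list lies between 6.32 and 6.55, above the 5.86 to 6.03 of the 12-month PBS ARF-DTR group.

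RefSeq promoter sequences (build GRCm38.p6) were held for 4 of the 7 genes. The 250 bases before the start are shown for Scgb3a1 and Reg3g because these 2 genes had the most similar deviations. Capitals mark matches on either strand to TGTTTNC (Foxa), CAAGNG (Nkx2-1), TTGCNNAA (C/EBP) and TTCNNNGAA (Stat), of which none overlap in these 2 promoters.
Scgb3a1: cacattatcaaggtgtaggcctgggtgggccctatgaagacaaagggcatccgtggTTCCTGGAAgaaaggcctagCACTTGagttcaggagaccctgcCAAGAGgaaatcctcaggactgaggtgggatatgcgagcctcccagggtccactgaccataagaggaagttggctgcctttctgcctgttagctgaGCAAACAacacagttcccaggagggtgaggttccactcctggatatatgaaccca
Reg3g: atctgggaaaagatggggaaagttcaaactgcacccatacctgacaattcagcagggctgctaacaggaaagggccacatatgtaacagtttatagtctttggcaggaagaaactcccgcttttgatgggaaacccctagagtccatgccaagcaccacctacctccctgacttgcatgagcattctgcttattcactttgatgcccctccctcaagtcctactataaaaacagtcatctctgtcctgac

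The Scgb3a1 promoter is chr11:49663345-49663594 (plus strand) and the Reg3g promoter chr6:78468875-78469124 (minus strand). The Scgb3a1 window held 1 Foxa match, 2 Nkx2-1 matches and 1 Stat match, and the Reg3g window held none of the 4 motifs. Of 32851 promoters of this length, 17.8% held the Foxa letters, 40.6% the Nkx2-1 letters, 9.56% the C/EBP letters and 7.02% the Stat letters.

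Scgb1a1 encodes the main club cell secretory protein. Its level was 9.16, 8.95, 9.14 and 8.94 in DT-treated ARF-DTR lungs, 8.68, 8.57, 8.78 and 8.68 in 12-month PBS ARF-DTR lungs, and 8.49, 8.67, 8.84 and 8.65 in 2-month ARF-DTR lungs. It was 9.01 and 8.96 in DT-treated WT lungs and 9.14 and 9.02 in PBS WT lungs. All 8 arrays of the second slide were above all 8 of the first.

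Before scaling, the intensity of Scgb1a1 ran the other way, at 349574 ± 4592 on the second slide and 398208 ± 6549 on the first (SD, n = 8 each). It differed at most 1.19-fold over the 16 arrays, while the 75th percentile differed 1.78-fold. The Scgb1a1 probe ranked 2 to 7 in brightness on the arrays. Over its 10 spots the raw signal had a coefficient of variation of 0.76% to 1.62%. For the other probes with 10 spots this was 11.36% to 13.96% (Pon1) and at least 6.25% (Scgb3a1). In the processed signal it was larger for Scgb1a1, 10.2% to 11.4%, against at most 4.90% for Pon1 and 4.11% for Scgb3a1. Whether the Scgb1a1 signal still followed the RNA amount at this brightness was not tested. The scaled level had r = -0.99 with the log2 of that percentile over 16 arrays, given as a description because the percentile is part of the level. The genes most like Scgb1a1 were Sftpc (r = 0.99), the surfactant protein C gene, Rn18s (r = 0.96), ribosomal RNA, and Cbr2 (r = 0.96), a club cell carbonyl reductase. After subtraction of group means, Scgb1a1 had r = -0.98 with the log2 percentile, which is subtracted from every gene of an array. These likenesses therefore include the shared scaling and were not read as shared expression. For the other members the same r was -0.77 for Scgb3a2, -0.72 for Reg3g, -0.71 for Scgb3a1, -0.70 for Muc5b, -0.49 for Aldh1a1 and 0.07 for Pon1. On the first slide 2-month replicate 1 had the highest percentile, 1088, and 2-month replicate 3 the lowest, 873. The part of the scaling in the likenesses of those members was not tested.

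**Figure D3:**
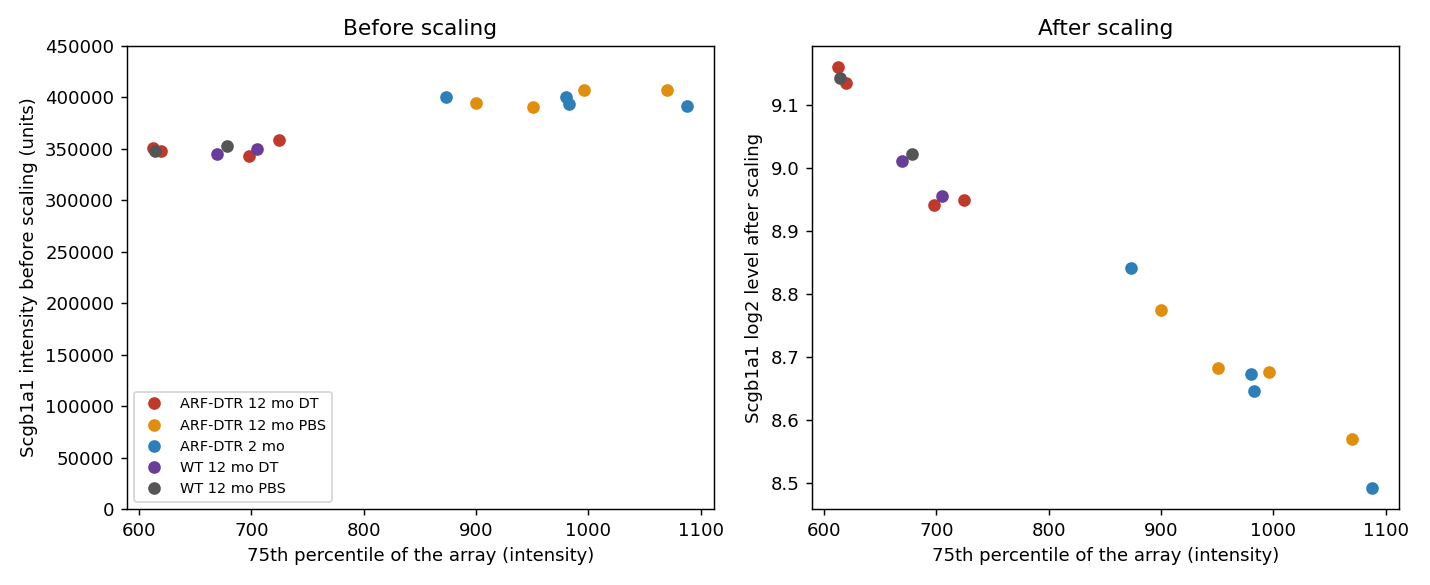
Scgb1a1 intensity before scaling (left, axis from 0) and its log2 level after scaling (right), against the 75th percentile of the array, 1 point per array. Before scaling the arrays lie between 343444 and 407506 intensity units, and after scaling the level falls along the whole range of the percentile.

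Scgb3a2 encodes a secretoglobin of bronchiolar club cells. Its level was 5.97, 5.47, 5.55 and 5.26 in DT-treated ARF-DTR lungs, 6.16, 6.10, 6.33 and 6.27 in 12-month PBS ARF-DTR lungs, and 5.47, 5.98, 6.66 and 6.19 in 2-month ARF-DTR lungs. It was 5.93 and 6.15 in DT-treated WT lungs and 6.27 and 6.17 in PBS WT lungs. The DT-treated ARF-DTR arrays were all below the 12-month PBS ARF-DTR arrays, and overlapped with the WT DT arrays.

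Aldh1a1 encodes a cytosolic aldehyde dehydrogenase that makes retinoic acid. Its level was 7.30, 7.19, 7.19 and 7.10 in DT-treated ARF-DTR lungs, 7.03, 7.19, 7.15 and 7.27 in 12-month PBS ARF-DTR lungs, and 6.85, 7.18, 7.40 and 7.12 in 2-month ARF-DTR lungs. It was 7.36 and 7.75 in DT-treated WT lungs and 7.61 and 7.55 in PBS WT lungs, above every 12-month ARF-DTR array.

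Pon1 encodes paraoxonase 1, an enzyme best known from liver and serum. Its level was 2.52, 2.27, 2.29 and 1.97 in DT-treated ARF-DTR lungs, 2.10, 2.85, 2.39 and 2.48 in 12-month PBS ARF-DTR lungs, and 2.74, 2.78, 2.78 and 2.75 in 2-month ARF-DTR lungs. It was 2.61 and 3.07 in DT-treated WT lungs and 3.13 and 3.29 in PBS WT lungs. It hardly varied in the 2-month group, in contrast to Scgb3a1 and Scgb3a2, where 99.2% of genes had a larger SD. Of the 8 liver genes followed, 5 were measured, namely Alb, Apoa2, Serpina1a, Ahsg and Cyp3a11. Apoa1, Ttr and Fgb were not well above background on at least 4 arrays.

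**Figure D4:**
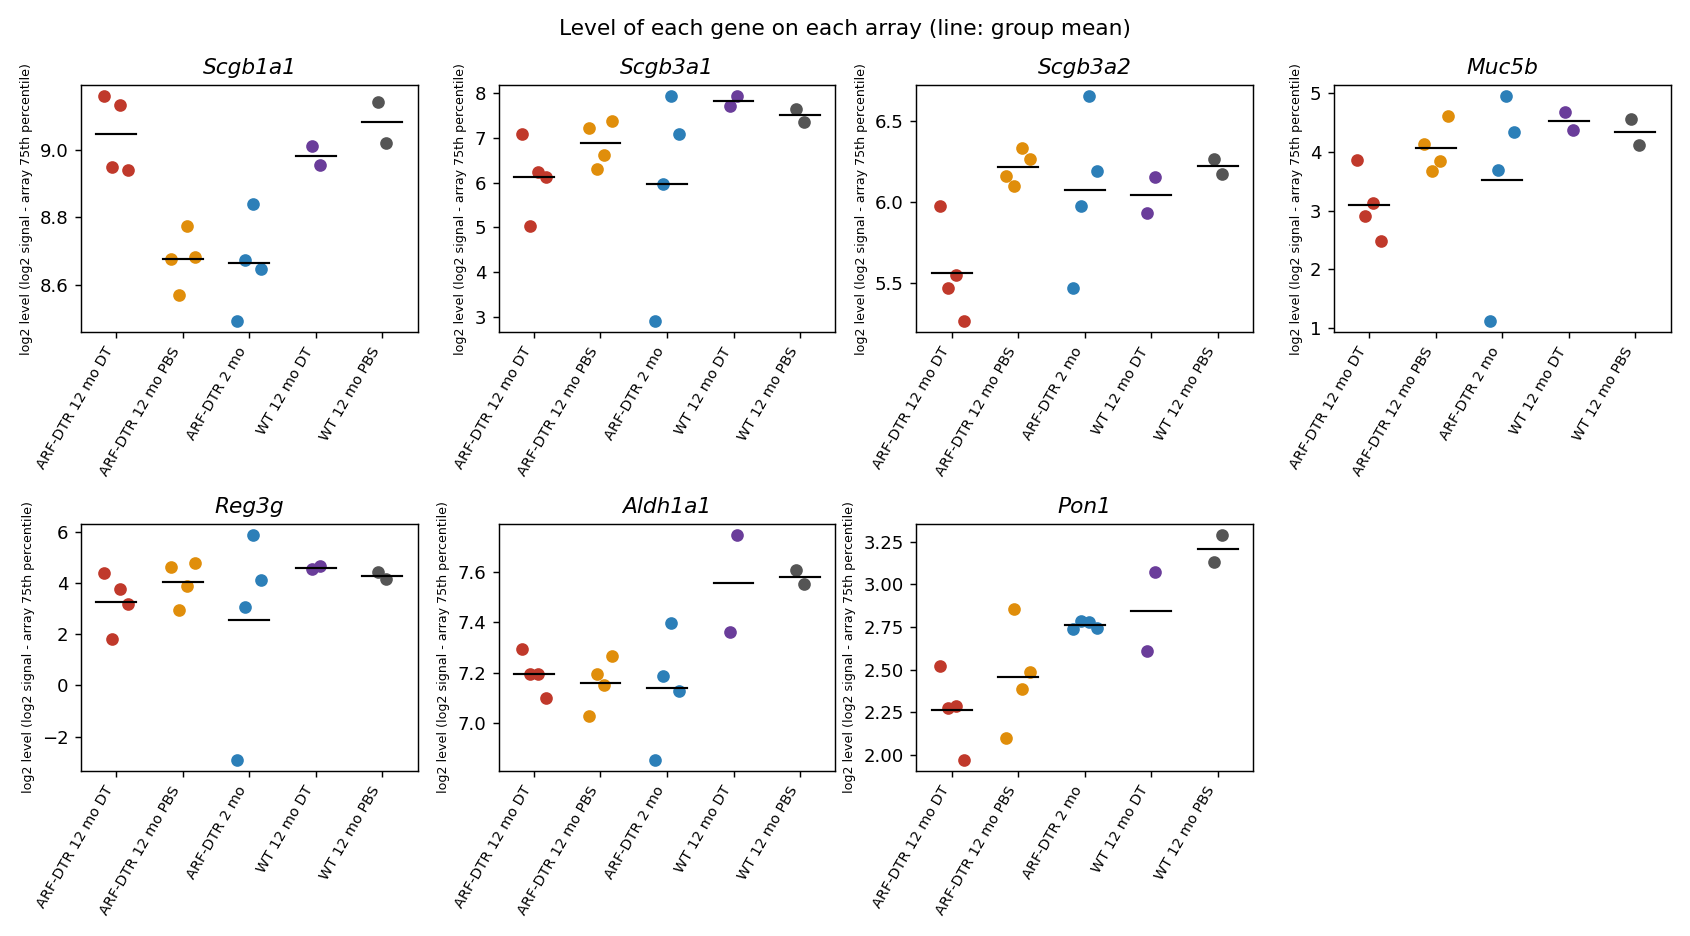
Log2 level of each of the 7 genes (vertical axes) on each of the 16 arrays, by group along the horizontal axes, with a line at the group mean. Scgb1a1, Scgb3a1, Muc5b, Reg3g and Aldh1a1 have their lowest point at 2-month replicate 1, and Scgb1a1 also separates by slide.

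With DT in 12-month ARF-DTR mice, 2 of the 7 genes passed (limma, Benjamini-Hochberg adjusted p under 0.05 over 25573 genes), against 29.3% of all genes. Scgb3a2 fell by 0.65 ± 0.20 on the log2 scale (limma standard error, adjusted p = 0.030). Its second probe, also lower, differed by -0.38 ± 0.25 and did not pass (limma, adjusted p = 0.27). Under scaling to array medians the difference was -0.47 and no longer passed (limma, adjusted p = 0.056), and as the mean of both probes it was -0.52 (limma, adjusted p = 0.11). It lost its call in 6 of 16 fits without 1 array, with differences of -0.79 to -0.55 over the 16.

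Scgb1a1 passed with a scaled difference of 0.37 ± 0.08 (limma, adjusted p = 0.0051), but the direction rests on the scaling. Under quantile normalization it was 0.02 (limma, adjusted p = 0.77), and without scaling it was -0.19 and passed in the other direction (limma, adjusted p = 0.011). Without scaling the median of all genes was itself -0.56 in this comparison.

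Muc5b (-0.97 ± 0.62), Reg3g (-0.78 ± 1.38) and Scgb3a1 (-0.76 ± 0.82) were lower on average with DT and did not pass, with limma adjusted p of 0.26, 0.70 and 0.51. Without 2-month replicate 1, which is in neither group but enters the shared variance, the Muc5b difference of -0.97 passed (limma, adjusted p = 0.038). Aldh1a1 differed by 0.04 ± 0.11 and Pon1 by -0.19 ± 0.15, and neither passed. Without scaling Muc5b (-1.53, limma adjusted p = 0.022), Pon1 (-0.76, limma adjusted p = 0.0016) and Aldh1a1 (-0.53, limma adjusted p = 0.00076) passed as lower.

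Over all 25573 genes 15.9% rose and 13.5% fell in this comparison. In the related lists, 6 club cell genes rose and 4 fell of 19 measured, with a median log2 difference of -0.06, against 0.0038 over all genes. Cbr2 rose by 0.42 ± 0.08 (limma, adjusted p = 0.0021) and Aox3, an aldehyde oxidase, by 0.34 ± 0.07 (limma, adjusted p = 0.0044). Iyd, a deiodinase, fell by 0.53 ± 0.11 (limma, adjusted p = 0.0046). Of 11 goblet cell genes 0 passed, with a median of -0.61. Of 17 measured ciliated cell genes 9 fell, led by Cdhr3, a cadherin, which fell by 1.05 ± 0.19 (limma, adjusted p = 0.0018), while 11 of 12 alveolar type 2 genes rose, led by the surfactant protein gene Sftpd at 0.87 (limma, adjusted p = 0.00019). All list values for this comparison cross the slides and are given in the chosen scaling only, on which the direction for Scgb1a1 rested. The part of these genes in the members' values was not tested.

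Among relatives of the members, 5 of 12 measured rose and 1 fell with DT in ARF-DTR mice, where 29.3% of all genes passed in either direction. Aldh1a7 differed by 0.34, Pon3 by 0.45, Pon2 by 0.34, the membrane mucin Muc1 by 0.61 and Scgb1c1 by 0.42, while Reg3d fell by 0.60. Those that did not pass were Aldh1a2 (0.56), Aldh1a3 (-0.25), Muc13 (-0.16), Muc20 (0.33), Muc4 (-0.47) and Muc5ac (-0.61).

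Of 10 measured airway defence genes 4 rose with DT in ARF-DTR mice, against 15.9% of all genes that rose. They were Lcn2 at 0.79, which binds bacterial siderophores, the protease inhibitor Slpi at 0.68, and the chitinase family genes Chia1 at 0.72 and Chil4 at 1.11. Of 14 transcription factors and regulators of secretory cells 3 rose, Cebpa at 0.68, Xbp1 at 0.33 and Elf5 at 0.61, and 0 fell, fewer passing than the 29.3% of all genes. Of 10 Notch pathway genes 2 fell, against 13.5% of all genes, and of 8 measured genes of the cytokine signalling known to induce Reg3 lectins 3 rose. On counts this small, no list is called apart from all genes.

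In WT mice DT gave 0 of 7 passing genes (limma), against 0.18% of all genes, and 0 at an unadjusted p under 0.05, against 12.7% of all genes. Differences ran between -0.37 ± 0.21 for Pon1 and 0.31 ± 1.15 for Scgb3a1. The difference between the effects of DT in ARF-DTR and in WT mice passed for 0 of 7 (2.1% of all genes), with 1 at an unadjusted p under 0.05, against 21.3% of all genes. This was Scgb1a1 at 0.47 ± 0.14 (limma, adjusted p = 0.090). That difference was 0.58 under scaling to array medians, where it passed (limma, adjusted p = 0.049), 0.44 with normexp background correction, where it also passed (limma, adjusted p = 0.047), and -0.18 without scaling, where it did not. Without scaling the difference between the effects passed for Scgb3a2, at -1.12 (limma, adjusted p = 0.0069), and for Aldh1a1, at -0.59 (limma, adjusted p = 0.021).

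With age, 12-month PBS against 2-month ARF-DTR lungs, 0 of 7 genes passed (limma), against 6.15% of all genes, and 0 had an unadjusted p under 0.05, against 20% of all genes. The 2-month mice had no injection, so age and injection cannot be told apart here. Reg3g differed by 1.51 ± 1.38, Scgb3a1 by 0.90 ± 0.82 and Muc5b by 0.54 ± 0.62, all within the spread of the 2-month arrays. Without 2-month replicate 1 these were -0.30, -0.12 and -0.26, so the direction rests on that array. Pon1 differed by -0.31 ± 0.15 (limma, adjusted p = 0.29). Of 12 measured relatives of the members, 1 rose and 1 fell: Aldh1a2, which also makes retinoic acid, rose by 1.45 (limma, adjusted p = 0.0015) and Aldh1a7 fell by 0.32 (limma, adjusted p = 0.019).

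For DT-treated 12-month against 2-month ARF-DTR lungs, Scgb1a1 differed by 0.38 ± 0.08 (limma, adjusted p = 0.0033) and Pon1 fell by 0.50 ± 0.15 (limma, adjusted p = 0.024), against 30.8% of all genes. This comparison also crosses the slides. The Scgb1a1 difference was -0.18 without scaling, and passed in that direction (limma, adjusted p = 0.015); under quantile normalization it was 0.0086 (limma, adjusted p = 0.91). Pon1 lost its call under scaling to array medians (-0.41, limma adjusted p = 0.060) and in 3 of 16 fits without 1 array. Scgb3a2 differed by -0.51 ± 0.20 and did not pass (limma, adjusted p = 0.076), but did under quantile normalization (-0.75, limma adjusted p = 0.019), with normexp (-0.55, limma adjusted p = 0.034) and without scaling (-1.07, limma adjusted p = 6.2e-05). It also passed without DT-treated ARF-DTR replicate 1 (-0.65, limma adjusted p = 0.036) and without 2-month replicate 1 (-0.71, limma adjusted p = 0.0080). Muc5b passed without 2-month replicate 1 (-1.23, limma adjusted p = 0.018), and Aldh1a1 without scaling (-0.51, limma adjusted p = 0.00079).

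With PBS, 3 of the 7 genes were lower in ARF-DTR than in WT lungs and passed. Of all 25573 genes 23.6% passed in either direction, 3254 as lower and 2794 as higher. Pon1 differed by -0.75 ± 0.19 (limma, adjusted p = 0.012), Aldh1a1 by -0.42 ± 0.13 (limma, adjusted p = 0.038) and Scgb1a1 by -0.41 ± 0.10 (limma, adjusted p = 0.012). Without scaling Scgb1a1 and Aldh1a1 were 0.19 and 0.18 and Pon1 was -0.15, and the calls of Aldh1a1 and Pon1 were lost, while Scgb1a1 passed in the other direction (limma, adjusted p = 0.034) and Scgb3a2 passed as higher in ARF-DTR lungs, at 0.59 (limma, adjusted p = 0.016). Under quantile normalization Aldh1a1 and Scgb1a1 were -0.04 each and did not pass (limma, adjusted p = 0.85 and 0.65). Aldh1a1 lost its call in 6 of 16 fits without 1 array, with adjusted p in limma of up to 0.19, namely without either WT PBS array, 12-month PBS ARF-DTR replicate 1, 2 or 3, or 2-month replicate 4. With no filter on dim probes its adjusted p was 0.052 (limma). Pon1 lost its call without either WT PBS array and with only the groups compared in the fit (limma, adjusted p = 0.055), and Scgb1a1 lost its call without WT PBS replicate 1. Of 19 measured club cell genes, given in the chosen scaling only, 9 fell and 1 rose, with a median of -0.45 against -0.02 over all genes. Hp fell by 0.72 ± 0.12 (limma, adjusted p = 0.0016) and Cldn10 by 0.74 ± 0.13 (limma, adjusted p = 0.0021).

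Within the second slide, DT-treated ARF-DTR lungs could be set against WT lungs without crossing slides, but not without crossing its rows. The share of spots well above background was 62.9% to 65.7% on the DT-treated ARF-DTR arrays and 57.0% to 61.3% on the WT arrays. Against DT-treated WT lungs 0 of 7 genes passed (limma), against 0.888% of all genes. At an unadjusted p under 0.05 there were 2, against 15.6% of all genes, Pon1 at -0.58 ± 0.19 (limma, adjusted p = 0.15) and Aldh1a1 at -0.36 ± 0.13 (limma, adjusted p = 0.21). Scgb3a1 differed by -1.69 (95% interval -3.85 to 0.47), Muc5b by -1.43 ± 0.76 and Reg3g by -1.32 ± 1.68, and for 5 of 7 genes the arrays of the 2 groups did not overlap, against 24.4% of all genes. Against PBS WT lungs Pon1 fell by 0.95 ± 0.19 (limma, adjusted p = 0.015), and 5.51% of all genes passed. Without either WT PBS array, its adjusted p in limma was 0.081 or 0.10, and with only these 2 groups in the fit it was 0.055. Scgb3a2 passed without 2-month replicates 1 and 3, at -0.66 (limma, adjusted p = 0.039). Every DT-treated ARF-DTR array was below all 4 WT arrays for Scgb3a1, Muc5b, Aldh1a1 and Pon1, 4 of 7 genes, against 5.94% of all genes lower in this way. The members were chosen with earlier results of these data known, and several vary together. Neither count of arrays that did not overlap is therefore read as an excess over all genes. In the comparison with PBS WT lungs, 8 of 17 measured ciliated cell genes and 3 of 19 club cell genes fell. Of all 25573 genes 867 fell there. Of 11 goblet cell genes 0 passed. Medians of the ciliated, club and goblet lists were -0.81, -0.38 and -0.46 against -0.0032 over all genes. The part of these cell types in the members' values was not tested. With the WT groups this small, the means of WT rest on 2 arrays each.

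**Figure D5:**
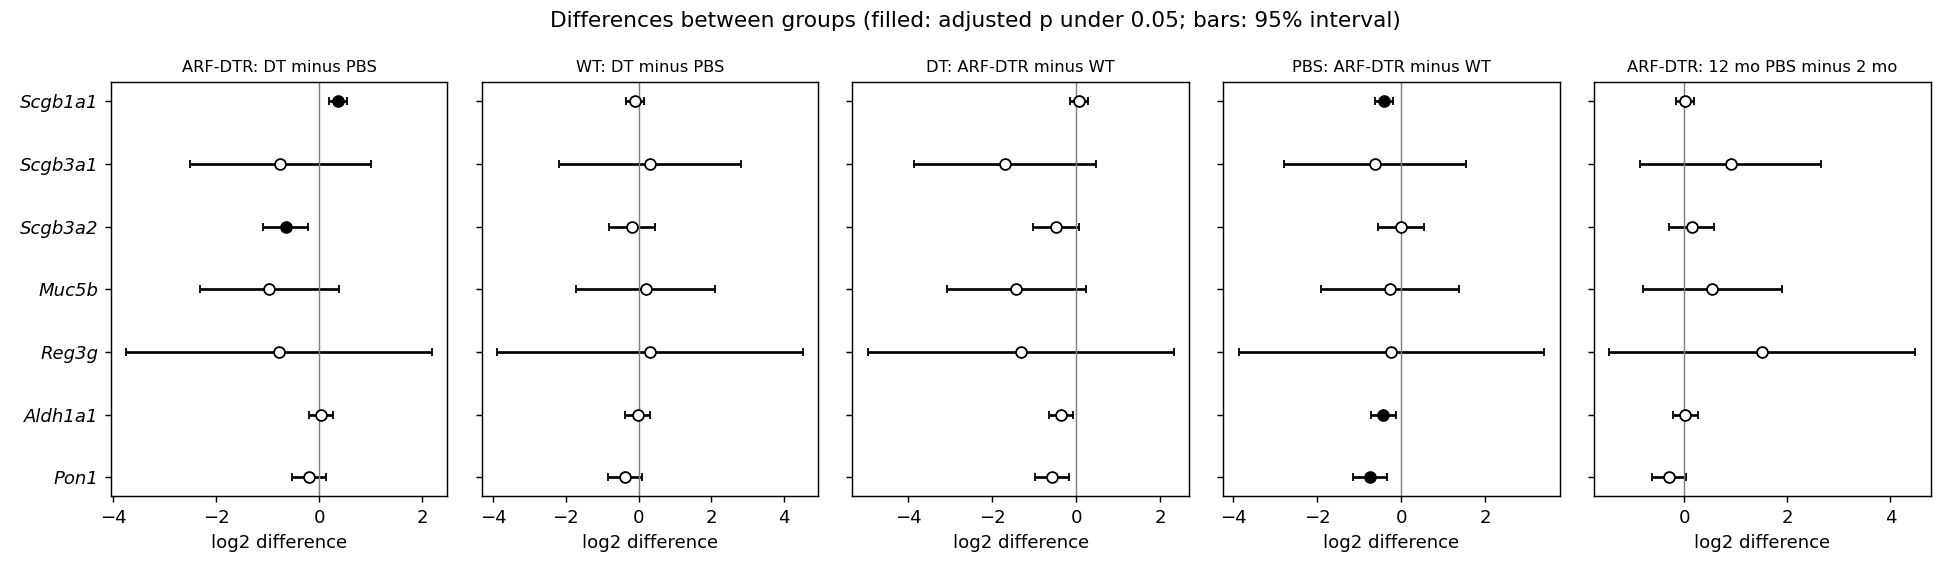
Log2 difference of each gene (horizontal axes) in 5 comparisons, with 95% intervals from limma and filled points where the adjusted p was under 0.05. The intervals of Reg3g, Scgb3a1 and Muc5b are wide in all 5 comparisons, and filled points appear for DT in ARF-DTR mice and for genotype with PBS, which cross the slides.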

How the data were processed

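Each deposited array file gives 1-channel intensity values, which the authors read with Agilent Feature Extraction 10.10.1.1, per the submitters' processing notes; the processed signal, background-subtracted and detrended per the file headers, was used. The authors' deposited series table holds log2 values, which were used as an alternative. Control and outlier spots were left out, spots of a probe averaged, and each array's 75th percentile subtracted from its log2 signals. A probe was kept if well above background on at least 4 of 16 arrays, and the brightest kept probe stood for a gene. Groups came from the titles, because the free descriptions of some WT samples disagree with title, source and treatment about DT. Limma 3.58.1 in R 4.3.3 fitted 1 mean per group over all 16 arrays; values after ± beside a difference are its standard errors. The fit was tested on simulated data. Alternatives were other scalings, normexp, other filters, probe averaging, a variance trend, fewer groups, a replicate block, and leaving out each array. A further 2 were chosen after seeing the data: no scaling, and no 2-month replicates 1 and 3. Members and lists were chosen with earlier results of these data known. Named were all 7 members, relatives of the members, up to 4 genes of a list by adjusted p, and the 3 genes most like each member. Deviations of same-numbered samples of different groups had r of -0.20 to 0.33 over 26 pairs, with a median of 0.06 and 7 above 0.1. Over 74 pairs with other numbers r was -0.24 to 0.28, with a median of -0.01 and 8 above 0.1. Numbers were not taken as pairs in the fit, and the replicate block among the alternatives used them. The number of arrays limits the precision.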

Additional observations from a re-analysis of the deposited data

How the results depend on the processing

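The count of genes passing was 1574 for age, 7495 for DT in ARF-DTR, 46 for DT in WT, 538 for the interaction, 7869 for DT-treated ARF-DTR against 2-month, 6048 for genotype with PBS, 227 for genotype with DT and 1409 for ARF-DTR DT against WT PBS. Scaled to array medians, the count was 28 for DT in WT. There the sign of these log2 differences turned, age -0.072 for Aldh1a1 and -0.078 for Scgb1a1, DT in WT 0.046 for Aldh1a1 and ARF-DTR DT against WT PBS 0.050 for Scgb1a1. With normexp, the count was 20 for DT in WT, 1948 for the interaction and 122 for genotype with DT. There the sign of these log2 differences turned, DT in ARF-DTR -0.013 for Aldh1a1 and genotype with PBS 0.048 for Scgb3a2. With no filter on dim probes, the count was 288 for the interaction and 3544 for genotype with DT. With probes well above background on all arrays, the count was 26 for DT in WT. With only the groups compared in the fit, the count was 960 for age, 0 for DT in WT, 6 for genotype with DT and 368 for ARF-DTR DT against WT PBS. With the replicate number as a block, the count was 90 for genotype with DT. With no scaling between arrays, the count was 787 for age, 20211 for DT in ARF-DTR, 12 for DT in WT, 13494 for the interaction, 20719 for DT-treated ARF-DTR against 2-month, 17941 for genotype with PBS, 80 for genotype with DT and 684 for ARF-DTR DT against WT PBS. There the sign of these log2 differences turned, DT in ARF-DTR -0.53 for Aldh1a1 and -0.19 for Scgb1a1, DT in WT 0.063 for Aldh1a1, the interaction -0.59 for Aldh1a1, -0.48 for Pon1 and -0.18 for Scgb1a1, DT-treated ARF-DTR against 2-month -0.51 for Aldh1a1, -0.18 for Scgb1a1 and -0.42 for Scgb3a1 and genotype with PBS 0.18 for Aldh1a1, 0.33 for Muc5b, 0.37 for Reg3g, 0.19 for Scgb1a1 and 0.59 for Scgb3a2. Without 2-month replicates 1 and 3, the count was 632 for age. There the sign of these log2 differences turned, DT-treated ARF-DTR against 2-month -0.32 for Reg3g and -0.41 for Scgb3a1. With quantile normalization, the sign of these log2 differences turned, age -0.00085 for Aldh1a1 and -0.011 for Scgb1a1, DT in ARF-DTR -0.29 for Aldh1a1, the interaction -0.26 for Aldh1a1, DT-treated ARF-DTR against 2-month -0.29 for Aldh1a1 and -0.077 for Scgb3a1, genotype with PBS 0.26 for Scgb3a2 and genotype with DT -0.00044 for Scgb1a1. Leaving out 1 array at a time gave counts of 920 to 1776 for age, 5387 to 8185 for DT in ARF-DTR, 21 to 232 for DT in WT, 226 to 1109 for the interaction, 6039 to 8352 for DT-treated ARF-DTR against 2-month, 2318 to 6704 for genotype with PBS, 78 to 297 for genotype with DT and 202 to 1692 for ARF-DTR DT against WT PBS. The log2 differences that changed sign without 1 array, none of them passing in the fit of all arrays, had these ranges. For age they were Aldh1a1 -0.077 to 0.11, Muc5b -0.26 to 1.01, Reg3g -0.30 to 2.62, Scgb1a1 -0.044 to 0.072, Scgb3a1 -0.12 to 1.55 and Scgb3a2 -0.060 to 0.33. For DT in ARF-DTR they were Aldh1a1 -0.0076 to 0.072. For DT in WT they were Aldh1a1 -0.22 to 0.17 and Muc5b -0.027 to 0.41. For the interaction they were Aldh1a1 -0.13 to 0.26 and Pon1 -0.056 to 0.40. For DT-treated ARF-DTR against 2-month they were Aldh1a1 -0.041 to 0.14, Muc5b -1.23 to 0.044, Reg3g -1.08 to 1.84 and Scgb3a1 -0.88 to 0.79. For genotype with PBS they were Reg3g -0.47 to 0.14 and Scgb3a2 -0.054 to 0.041. For ARF-DTR DT against WT PBS they were Scgb1a1 -0.097 to 0.024. Scaling to array medians moved the median of all genes to 0.18 for DT in ARF-DTR, -0.12 for age, -0.12 for genotype with PBS and 0.14 for the interaction. It also moved the split of higher and lower calls, which was 8674 higher and 1751 lower for DT in ARF-DTR, against 4054 and 3441 in the chosen scaling, and 528 and 1453 for age, against 699 and 875. With normexp the split for DT in ARF-DTR was 7163 and 2522, and without scaling it was 44 and 20167. Differences of single members crossed the threshold without turning in 32 cases to not passing and in 15 to passing, over all members, comparisons and settings. The authors' table and a variance trend changed no member's call and no count by over 1.5 times. The 2 arrays in each WT group limit what could be detected there. The replicate block changed no member's call and no other count by over 1.5 times. The cause of these changes was not tested.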
